A study of Mus musculus with 6 samples.

Results

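The genes described here present peptides on MHC class II, and they were followed in mouse acute myeloid leukemia cells with and without PPARA. The 10 listed genes were H2-Aa, H2-Ab1, H2-Eb1, H2-DMa, H2-DMb1, H2-Oa, H2-Ob, Cd74, Ciita and Ifi30. They were chosen by name, and each was read from the probe set that is paired with its symbol alone, taking the row with the highest mean over the 6 arrays where there were several. This gave 9 genes of the 30743 that could be named and tested. Cd74, the invariant chain, has no value here, because its probe set is shared with the microRNA gene Mir5107.

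The cells were marrow mononuclear cells from secondary recipients of MLL-AF9 leukemia, sorted for the GFP that the same retrovirus (MSCV-MLL-AF9-IRES-GFP) carries. All 6 samples carry the MLL-AF9 fusion. The 3 Ppara+/+ and 3 Ppara-/- samples differ in the germline Ppara genotype of the mice that gave the starting marrow; both kinds of mouse came from The Jackson Laboratory and were backcrossed after arrival. Age, strain background, the genotype of the recipients and the number of separate primary leukemias are not stated in the labels, so each p-value rests on the spread among the 6 samples, which may be technical in part. The comparison asks whether leukemia cells without PPARA express other levels of the genes by which helper T cells recognise a cell.

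MHC class II molecules are pairs of an alpha and a beta chain that carry peptides from endosomes to the cell surface, where CD4+ T cells read them. New pairs are held by the invariant chain, proteases cut that chain down to a remnant called CLIP, and the DM heterodimer exchanges CLIP for a peptide, while the DO heterodimer holds DM back. The coactivator CIITA switches most of these genes on together, in B cells, dendritic cells and macrophages at rest or after interferon gamma. Myeloid leukemia cells can lower class II and so be less visible to T cells.

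All 3 surface chains had higher mean signals in Ppara-/- cells (log2 differences of 0.41 to 0.46), whereas 4 of 5 genes of peptide loading and processing had lower ones, down to -1.49 for Ifi30. None of the differences passed the test over all genes: limma called 0 of the 9 members at an adjusted p under 0.05 (Benjamini-Hochberg), where it called 0.117% of all genes, and 4 of the 9 had an unadjusted p under 0.05, where 5.74% of all genes did. The 3 Ppara-/- values lay below all 3 Ppara+/+ values in 3 members, all of loading and processing (H2-DMa, H2-DMb1 and Ifi30), and this held for 3.62% of all genes. In none of the 9 did all Ppara-/- values lie above, against 5.11% of all genes. The median difference was 0.01 over the members and 0.02 over all genes.

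Array signals are on a log2 scale, and a level here is the signal of a probe set, which cannot be ranked against that of another gene. The 5222 negative-control probe sets give the floor: their 95th percentile was 7.91 to 8.23 on the 6 arrays and their median 4.63 to 5.16. Ifi30 lay above the array's own 95th percentile on 6 of 6 arrays, H2-Ab1 and H2-DMa on 1, and the other 6 members on none. Each member lay above the array's control median on every array, apart from Ciita on Ppara+/+ replicate 1. That array had the highest control median, 5.16, followed by Ppara-/- replicate 2 with 4.99. Most of the class II differences are therefore differences between dim signals. The targeted gene, Ppara, was itself near the control median, at 4.87 to 5.19 on the Ppara+/+ and 5.05 to 5.29 on the Ppara-/- arrays (log2 difference 0.11, SE 0.13), and the part of the gene its probes match is not known here, so it does not check the labels.

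**Figure D1:**
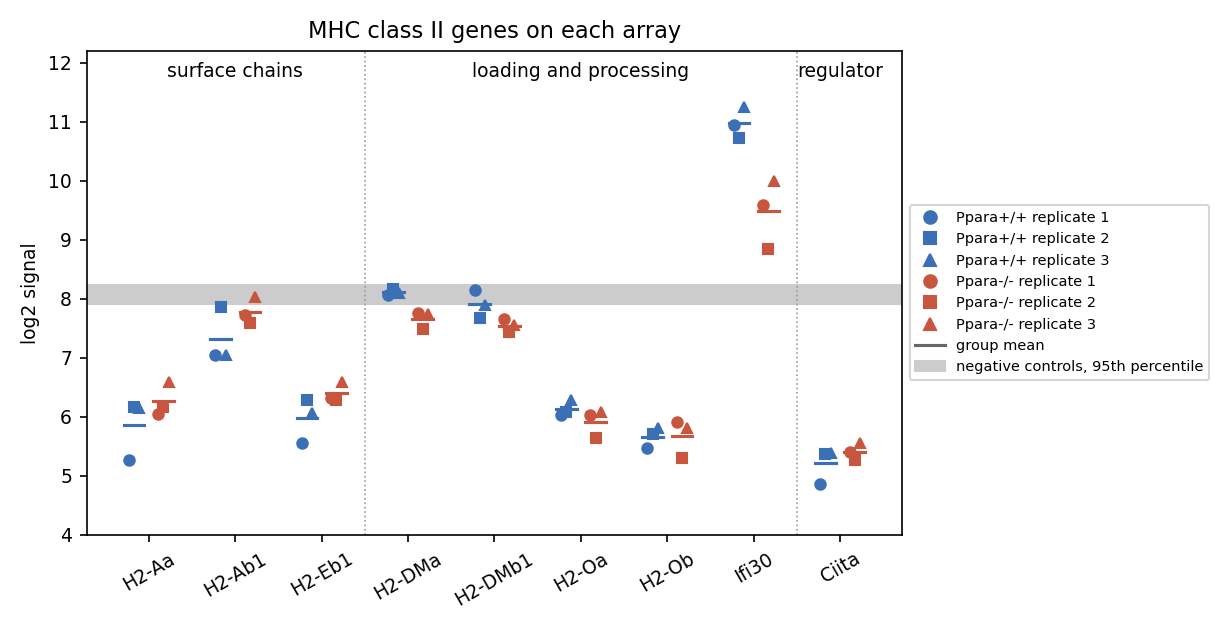
Log2 signal (y axis) of the 9 class II genes (x axis) on each of 6 arrays, blue for Ppara+/+ and red for Ppara-/-, with a marker shape per replicate number and a bar at each group mean (n = 3); the grey band spans the 95th percentiles of the negative controls, 7.91 to 8.23. Ifi30 sits above the band in all 6 arrays with no overlap between genotypes, and the surface chains overlap.

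The surface chains belong to the 2 class II molecules of the mouse, I-A and I-E. H2-Aa and H2-Ab1 encode the alpha and beta chain of I-A, and H2-Eb1 the beta chain of I-E. The alpha chain of I-E is not among the members, so their values do not show whether I-E was formed. The H2-Aa signal was 5.26, 6.17 and 6.14 on the Ppara+/+ arrays (replicates 1, 2 and 3) and 6.04, 6.16 and 6.59 on the Ppara-/- arrays. Ppara+/+ replicate 1 stood lowest, and the other 2 Ppara+/+ values lay inside the Ppara-/- range. The means were 5.86 ± 0.52 and 6.26 ± 0.29 (SD, n = 3), a log2 difference of 0.41 (SE 0.25, 95% interval -0.17 to 0.98; limma adjusted p = 0.997).

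H2-Ab1 was at 7.04, 7.86 and 7.04 in Ppara+/+ and at 7.72, 7.58 and 8.02 in Ppara-/- samples. Here Ppara+/+ replicates 1 and 3 were the low ones, and replicate 2 exceeded 2 of the 3 Ppara-/- values. The log2 difference was 0.46 (SE 0.23, 95% interval -0.06 to 0.98; limma adjusted p = 0.952), a signal ratio of 1.38.

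H2-Eb1 was at 5.56, 6.28 and 6.07 in Ppara+/+ and at 6.31, 6.28 and 6.59 in Ppara-/- samples. The groups met at 6.28, the value of replicate 2 in both genotypes. The log2 difference was 0.42 (SE 0.18; limma adjusted p = 0.868, unadjusted p = 0.0492), a signal ratio of 1.34.

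Ppara+/+ replicate 1 carried much of the difference of the surface chains. With each gene set to its own mean over the 6 arrays, the mean of the 3 chains was -0.64, 0.17 and -0.18 on Ppara+/+ replicates 1, 2 and 3 and 0.09, 0.08 and 0.47 on the Ppara-/- arrays. The mean difference of 0.43 became 0.22 without Ppara+/+ replicate 1 and 0.30 without Ppara-/- replicate 3, and it was 0.62 without Ppara+/+ replicate 2. For H2-Aa alone it went from 0.41 to 0.11 without Ppara+/+ replicate 1, for H2-Eb1 from 0.42 to 0.22 without that array, and for H2-Ab1 from 0.46 to 0.73 without Ppara+/+ replicate 2. The chains did not follow each other on every array: without Ppara+/+ replicate 3 the H2-Aa difference was 0.55 and that of H2-Ab1 0.32. Ppara+/+ replicate 1 also had the lowest median over all named genes, 5.16, where the other arrays had 5.25 to 5.40. With the control median as a covariate the differences were 0.24 for H2-Aa, 0.32 for H2-Ab1 and 0.29 for H2-Eb1.

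Among the 4413 genes with a mean signal above 7.91 that are not members, the 5 whose centred profiles lay nearest to that of the surface chains were n-R5s194, Gm25857, n-R5s2, Gm22109 and Gm22291, with root mean square differences of 0.076 to 0.111 against a median of 0.43. The n-R5s symbols are those of nuclear 5S ribosomal RNA genes. The likeness is a description over 6 arrays.

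The upstream sequence of 4 members is shown because class II promoters share a regulatory module, the X and Y boxes, through which RFX, CREB and NF-Y recruit CIITA, and because surface and loading genes with this module had differences of opposite sign here. RefSeq windows from 250 bases before to 50 after the start site (build GRCm38.p6) were used for 7 of the 10 listed genes; those of H2-Ab1, Cd74 and Ciita were not used here. Capitals mark matches on either strand to ATTGG, the core of the Y box (its reverse complement is the CCAAT box), and to GNAAC followed, after any 2 bases, by ATG, a core of the X box that was chosen after the members' windows had been read; the 2 motifs do not overlap in the windows shown. All windows run 5′ to 3′ on the gene's strand.
H2-Aa (GRCm38.p6, chr17:34287774-34288073, minus strand): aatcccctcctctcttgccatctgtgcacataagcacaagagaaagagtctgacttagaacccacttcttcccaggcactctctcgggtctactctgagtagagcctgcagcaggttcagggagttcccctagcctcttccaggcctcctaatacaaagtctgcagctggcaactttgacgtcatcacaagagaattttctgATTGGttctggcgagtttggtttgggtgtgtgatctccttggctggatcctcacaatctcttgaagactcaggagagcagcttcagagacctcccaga
H2-Eb1 (GRCm38.p6, chr17:34305617-34305916, plus strand): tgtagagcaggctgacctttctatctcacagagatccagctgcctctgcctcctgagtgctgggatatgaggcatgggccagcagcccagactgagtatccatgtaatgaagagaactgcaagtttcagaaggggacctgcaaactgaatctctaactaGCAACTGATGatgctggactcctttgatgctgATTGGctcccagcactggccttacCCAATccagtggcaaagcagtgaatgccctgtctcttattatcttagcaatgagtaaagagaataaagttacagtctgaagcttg
H2-DMb1 (GRCm38.p6, chr17:34152941-34153240, plus strand): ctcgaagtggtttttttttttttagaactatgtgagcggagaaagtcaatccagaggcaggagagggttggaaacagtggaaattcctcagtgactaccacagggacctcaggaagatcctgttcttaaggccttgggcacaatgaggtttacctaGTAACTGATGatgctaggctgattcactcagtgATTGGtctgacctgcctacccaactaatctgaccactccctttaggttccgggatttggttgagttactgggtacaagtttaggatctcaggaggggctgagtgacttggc
Ifi30 (GRCm38.p6, chr8:70766614-70766913, minus strand): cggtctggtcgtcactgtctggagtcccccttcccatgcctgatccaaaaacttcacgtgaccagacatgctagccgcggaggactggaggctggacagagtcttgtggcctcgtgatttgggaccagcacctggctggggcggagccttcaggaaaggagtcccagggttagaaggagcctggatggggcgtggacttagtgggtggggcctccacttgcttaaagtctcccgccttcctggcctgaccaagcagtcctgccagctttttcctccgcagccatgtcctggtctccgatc

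In the H2-Eb1 window the X core was followed by a Y core after 22 bases, and in the H2-DMb1 window after 23. H2-Ob has the same arrangement with 20 bases between. H2-Aa and H2-Oa hold the Y core but no match to these X letters. The H2-Aa window does hold GCAAC before its Y core, but without the ATG that the pattern asks for. A window without a match can thus still hold an X box with other letters. H2-DMa has 2 windows, of which 1 holds a Y core and neither an X core. They begin at 34122582 and 34125268, inside the annotated gene (34119693 to 34139101) and not at its first base. Any H2-DMa start site elsewhere was not searched, so these windows do not show whether its promoter has an X box. The Ifi30 window holds neither motif. Of all 32851 windows, 37.4% hold the Y core, 2.51% the X core and 1.12% both. H2-Eb1 (log2 difference 0.42), H2-Ob (0.01) and H2-DMb1 (-0.36) thus share both motifs, with differences above, near and below 0. These matches describe letters, not bound sites.

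The largest difference of the 9 genes was that of Ifi30, among the loading and processing genes. Ifi30, also called GILT, is the endosomal thiol reductase that opens disulfide bonds of antigens before they are cut. Its signal was 10.94, 10.72 and 11.25 on the Ppara+/+ arrays and 9.59, 8.84 and 10.00 on the Ppara-/- arrays. Every Ppara-/- value lay below every Ppara+/+ value, with Ppara-/- replicate 2 the lowest. The means were 10.97 ± 0.27 and 9.48 ± 0.59 (SD, n = 3), so the signal was 2.82-fold lower in Ppara-/- samples (log2 difference -1.49, SE 0.27, 95% interval -2.11 to -0.88). It ranked 99 of 30743 by p, with an unadjusted p of 0.000447 and an adjusted p of 0.139 (limma); the exact two-sided permutation p was 0.1, the smallest that 3 samples against 3 allow. Across 14 alternative settings the difference ran from -1.76 to -1.18 and the adjusted p from 0.0581 to 0.453.

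H2-DMa and H2-DMb1 encode the chains of DM, the editor that removes CLIP. H2-DMa was at 8.06, 8.16 and 8.10 in Ppara+/+ and at 7.76, 7.48 and 7.74 in Ppara-/- samples. The Ppara+/+ arrays lay close together (SD 0.05), and all Ppara-/- arrays lay below them. The difference was -0.45 (SE 0.11, 95% interval -0.70 to -0.19; limma adjusted p = 0.324; exact permutation p = 0.1), so the signal was 1.36-fold lower.

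H2-DMb1 was at 8.14, 7.68 and 7.89 in Ppara+/+ and at 7.65, 7.43 and 7.55 in Ppara-/- samples. The groups did not overlap, though their nearest values, 7.68 and 7.65, lay close together. The difference was -0.36 (SE 0.14; limma adjusted p = 0.77; exact permutation p = 0.1), and -0.18 without both arrays of highest control signal. Its neighbour H2-DMb2, a near-identical copy of the DM beta gene, was at 7.83, 7.68 and 7.75 in Ppara+/+ and at 7.50, 7.24 and 7.64 in Ppara-/- samples (difference -0.29, SE 0.12; limma adjusted p = 0.859; -0.18 without Ppara-/- replicate 2). Probes may be shared between these copies, so the 2 values are not independent and either is uncertain.

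H2-Oa and H2-Ob encode DO, the inhibitor of DM that B cells use most. H2-Oa was at 6.03, 6.08 and 6.28 in Ppara+/+ and at 6.02, 5.64 and 6.08 in Ppara-/- samples, with overlap (difference -0.22, SE 0.14; limma adjusted p = 0.997), and the difference was -0.08 without Ppara-/- replicate 2 and -0.14 without Ppara+/+ replicate 3. H2-Ob was at 5.47, 5.71 and 5.80 in Ppara+/+ and at 5.91, 5.30 and 5.81 in Ppara-/- samples. Its difference of 0.01 (SE 0.17, 95% interval -0.38 to 0.40; limma adjusted p = 0.997) became -0.01 when arrays were centred on their medians or quantile normalized again. The H2-Oa interval, -0.54 to 0.10, and that of H2-Ob both overlap the H2-DMa interval of -0.70 to -0.19. Differences between these genes were not tested.

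The profile of H2-DMa over the 6 arrays was most like those of Evl, an actin regulator, Fcer1g, the signalling chain shared by Fc receptors, Dap, Vps37c, a subunit of the endosomal sorting complex ESCRT-I, and Lgals1, a galectin. Their root mean square differences from it were 0.080 to 0.097, where the median over the 4413 genes compared was 0.31.

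The 2 arms were also compared within each array. The centred mean of the 5 loading and processing genes was 0.22, 0.17 and 0.36 on Ppara+/+ replicates 1, 2 and 3 and -0.12, -0.57 and -0.07 on the Ppara-/- arrays. Subtracting it from the centred mean of the surface chains gave -0.87, 0.01 and -0.54 in Ppara+/+ and 0.21, 0.64 and 0.54 in Ppara-/- samples. All Ppara-/- values were above all Ppara+/+ values, and Ppara+/+ replicate 2 came nearest. The genotype means differed by 0.93, with a pooled SD of 0.35 between arrays of a genotype. No test is given for this score, because the arms were set with earlier results of these data known. The loading and processing arm contributed -0.50 (-0.34 without Ppara-/- replicate 2) and the surface arm 0.43. Ifi30 carried much of the first: the other 4 genes averaged -0.25, and the score without Ifi30, computed after the values were seen, was 0.68.

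**Figure D2:**
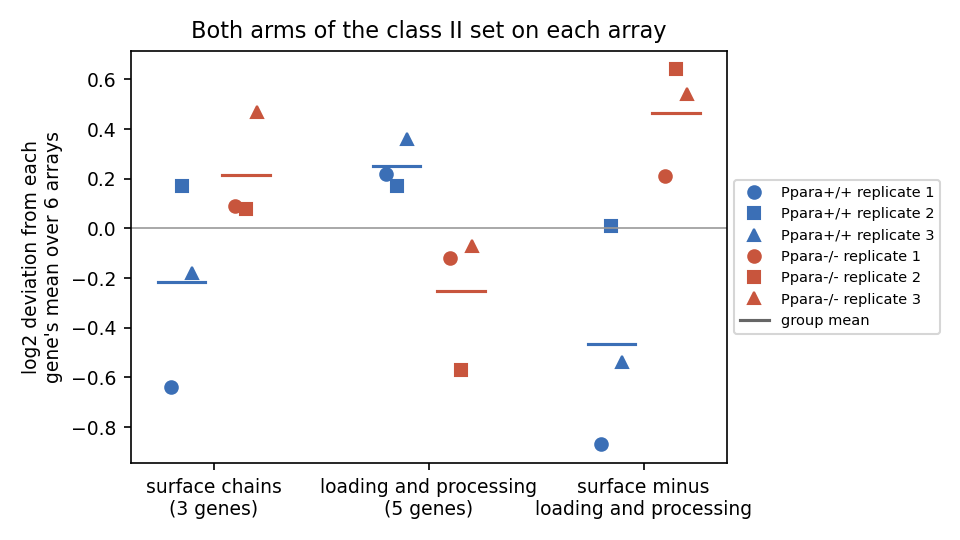
Mean log2 deviation of each gene from its own mean over 6 arrays (y axis), for the 3 surface chains, the 5 loading and processing genes and the first minus the second (x axis), per array with bars at the group means (n = 3). The surface chains overlap between genotypes, whereas the loading and processing values are 0.17 to 0.36 in Ppara+/+ and -0.57 to -0.07 in Ppara-/- samples.

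The arms are also neighbours in the genome. In the RefSeq order on chromosome 17, H2-Oa, H2-DMa, H2-DMb2, H2-DMb1 and H2-Ob lie next to each other in the class II region, and are followed by H2-Ab1, H2-Aa and H2-Eb1, then H2-Eb2 and H2-Ea. Ifi30, with the largest difference, lies outside this region, on chromosome 8. The H2-Ea signal, annotated in RefSeq as a transcribed pseudogene, averaged 4.25 ± 0.16 with PPARA and 4.14 ± 0.04 without it (SD, n = 3), and that of H2-Eb2 was 4.27 ± 0.25 and 4.29 ± 0.14. Both lay under the control median of every array, so no level of either can be given.

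Ciita, the master coactivator, did not separate the genotypes. It was at 4.86, 5.37 and 5.39 in Ppara+/+ and at 5.40, 5.27 and 5.55 in Ppara-/- samples, close to the control median throughout. The difference was 0.20 (SE 0.16, 95% interval -0.16 to 0.56; limma adjusted p = 0.997), and 0.03 without Ppara+/+ replicate 1, the array with the lowest Ciita signal and the lowest mean of the surface chains.

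**Figure D3:**
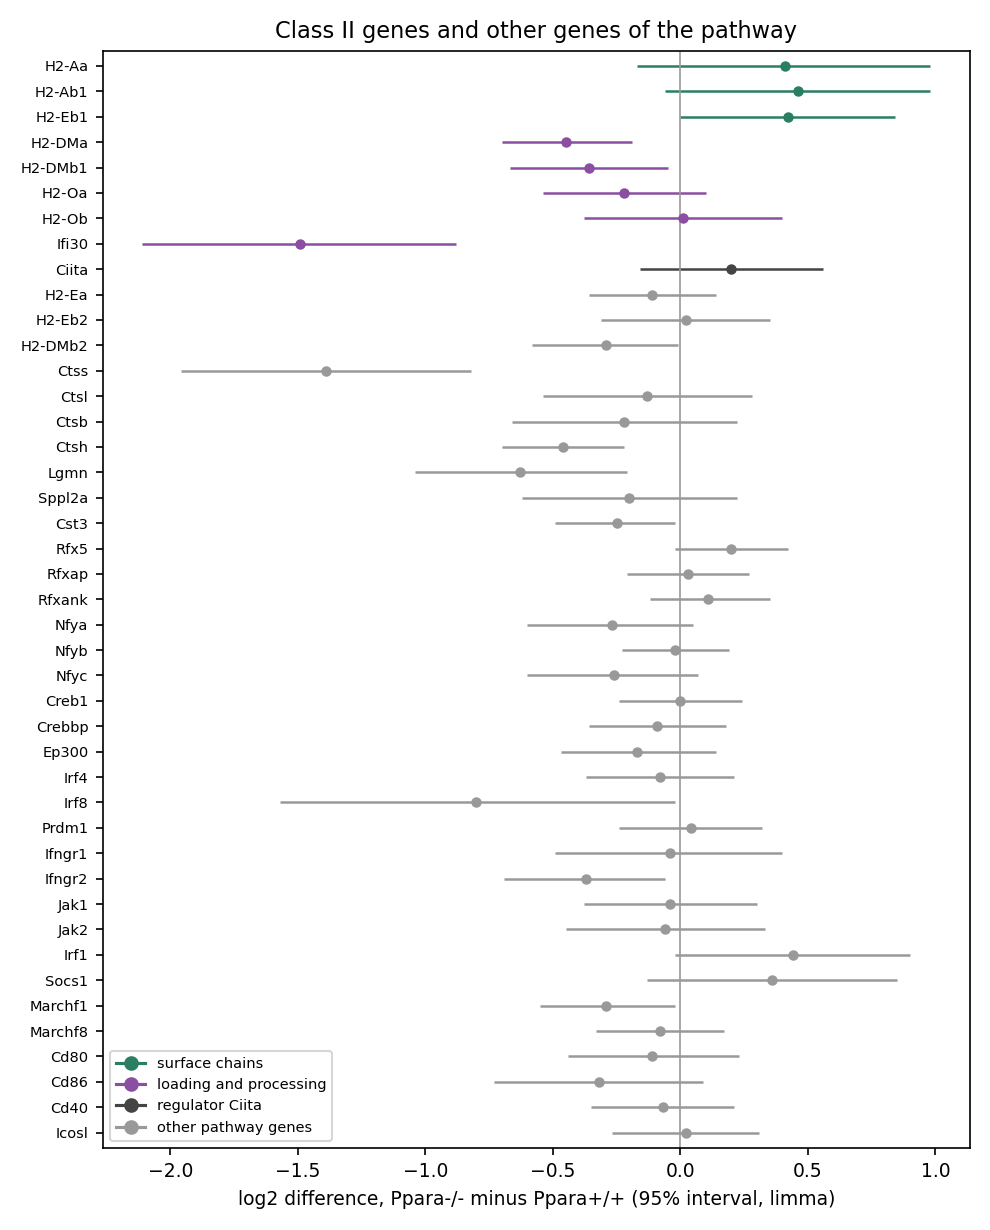
Log2 difference, Ppara-/- minus Ppara+/+ (x axis), with its 95% limma interval for the 9 class II genes (coloured by role) and the 34 other measured genes of the pathway (grey). The 3 surface chains lie at 0.41 to 0.46, Ifi30 at -1.49 and Ctss at -1.39, and none of the genes shown passed the test over all genes.

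Other genes of the pathway were read from 5 lists with 37 genes, of which 34 were measured. Limma called 0 of the 34 (0.117% of all genes), and 8 had an unadjusted p under 0.05 (5.74% of all genes). Negative differences were seen in 25 (42.9% of all genes) and positive ones in 9, with a median of -0.10. That share is not matched for signal: means were below 7.91 in 26323 of all 30743 genes but in 19 of the 34. The endosomal proteases and their inhibitor had lower means throughout: 7 of 7 measured members had a negative difference (median -0.25), where 42.9% of all genes did. In 4 of them all Ppara-/- values lay below, as in 3.62% of all genes. Of the 7, 5 had means at or above 7.91, and over the 4414 genes above that level the median difference was -0.023. Ctss encodes cathepsin S, which makes the last cuts in the invariant chain. It was at 9.58, 9.04 and 9.35 in Ppara+/+ and at 8.13, 7.34 and 8.33 in Ppara-/- samples. All Ppara-/- values lay lower, with replicate 2 the lowest, as for Ifi30 (difference -1.39, SE 0.25; limma adjusted p = 0.139). Ctsh, the aminopeptidase cathepsin H, averaged 9.38 ± 0.11 with PPARA and 8.92 ± 0.09 without (SD, n = 3; difference -0.46, SE 0.11; limma adjusted p = 0.247). The other non-overlapping genes were Lgmn, an asparaginyl endopeptidase (-0.63), and Cst3, the inhibitor cystatin C (-0.25).

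The 12 measured transcriptional regulators had 5 positive and 7 negative differences (median -0.05). Of the subunits of the X box factor RFX, Rfx5 was at 7.02 ± 0.03 in Ppara-/- and 6.82 ± 0.08 in Ppara+/+ samples. It was the one regulator with all Ppara-/- values above, as in 5.11% of all genes (difference 0.20, SE 0.10, limma adjusted p = 0.942). Rfxap and Rfxank differed by 0.03 and 0.11. Irf8, a monocyte and dendritic cell factor, was at 8.84, 8.91 and 8.88 in Ppara+/+ and at 8.47, 7.13 and 8.64 in Ppara-/- samples. Ppara-/- replicate 2 was far below the rest, and the difference of -0.80 (SE 0.34; limma adjusted p = 0.861) was -0.32 without it.

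Of 6 measured genes of interferon gamma signalling, 2 had positive and 4 negative differences (median -0.04), and the genotypes overlapped in each. Ifngr2, the second receptor chain, was at 8.56 ± 0.12 in Ppara-/- and 8.93 ± 0.24 in Ppara+/+ samples (difference -0.37, SE 0.14), and Irf1, which acts on a Ciita promoter, at 8.06 ± 0.44 and 7.62 ± 0.11 (difference 0.44, SE 0.20; SD, n = 3; limma adjusted p = 0.754 and 0.902). The Irf1 difference was 0.20 without Ppara-/- replicate 3 and 0.28 with the mean of its probe sets. Of 6 genes of turnover and costimulation 5 had negative differences (median -0.09). Marchf1, a ubiquitin ligase that removes class II from the surface, was at 6.28, 6.34 and 6.52 in Ppara+/+ and at 6.13, 5.94 and 6.21 in Ppara-/- samples. All Ppara-/- values lay below, as in 3.62% of all genes (difference -0.29, SE 0.12, limma adjusted p = 0.821). The costimulator Cd86 overlapped (difference -0.32, SE 0.18; limma adjusted p = 0.997), and its difference was -0.14 without Ppara+/+ replicate 3.

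Markers of the cell types that carry class II were read beside these values. In bulk samples, fewer cells of a type and less RNA per cell cannot be told apart. Mpo, Elane, Prtn3, Ctsg, Itgam, Ptprc, Kit, Meis1 and Cebpa were the 9 of 10 measured leukemia markers with a mean at or above 7.91. The stem cell factor receptor Kit (difference 0.54, limma adjusted p = 0.547) and Hoxa10 (0.35, limma adjusted p = 0.554) had all Ppara-/- values above, as did 5.11% of all genes. All 11 B cell, all 12 dendritic cell and all 7 T and NK cell markers measured had means below 7.91. Their medians were 0.07, -0.01 and 0.03, and none of them passed. All Ppara-/- values lay below in Cd209a, a lectin of monocyte-derived dendritic cells (difference -0.77, limma adjusted p = 0.227). The same held for Ccr9 (-0.15) and the B cell receptor chain Cd79b (-0.40, limma adjusted p = 0.618), as in 3.62% of all genes. In Vpreb3 they lay above, as in 5.11% of all genes, with a difference of 0.07, the median of its list. The summed signal of the B cell list was 438 to 502 in Ppara-/- and 478 to 548 in Ppara+/+ samples, and that of the dendritic cell list 538 to 652 and 585 to 691, with overlap in both.

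Of 14 measured monocyte and macrophage markers, 10 had negative differences, where 42.9% of all genes did, and 4 had positive ones (Ccr2 0.37, Cd14 0.23, Mrc1 0.07 and C1qc 0.03). The median of the 14 was -0.21, and that of the 4414 genes with means above 7.91 was -0.023. In 6 all Ppara-/- values lay below, as in 3.62% of all genes, and limma called 1 of the 14 (0.117% of all genes). The summed signal was 9756 to 11609 in Ppara-/- and 11891 to 15035 in Ppara+/+ samples, without overlap. This sum of unlogged signals rests mostly on Ly6c2, which overlapped (log2 12.79 to 13.24 in Ppara-/- and 13.08 to 13.34 in Ppara+/+ samples, difference -0.13). The sum is therefore no summary of all 14 markers. Means under 7.91 were found in 8 of the 14, among them Mrc1, C1qa, C1qb and C1qc. The centred mean of the 14 was 0.23, 0.16 and 0.27 on the Ppara+/+ arrays and -0.21, -0.34 and -0.11 on the Ppara-/- arrays. The Ppara-/- arrays stood in this order for Ifi30 and Ctss too. So they did for the T and NK cell list (0.06, -0.07 and 0.08), whose markers all had means below 7.91. Among them, replicate 2 was also lowest in the B cell (0.07, -0.10 and 0.06) and dendritic cell lists (0.04, -0.16 and 0.01). It was highest in the leukemia list (0.12, 0.28 and -0.17). Vcam1, an adhesion molecule of marrow macrophages, was the marker called (difference -1.39, limma adjusted p = 0.0374). Its mean of 6.62 was under 7.91, and it passed in 4 of 13 alternative settings. All Ppara-/- values also lay below in Fn1 (-2.02), Csf1r (-0.94), Cd68 (-0.73), Adgre1 (-0.66) and Cx3cr1 (-0.36), none of which was called. The part of these cells in the differences of the loading genes and of the surface chains was not tested.

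**Figure D4:**
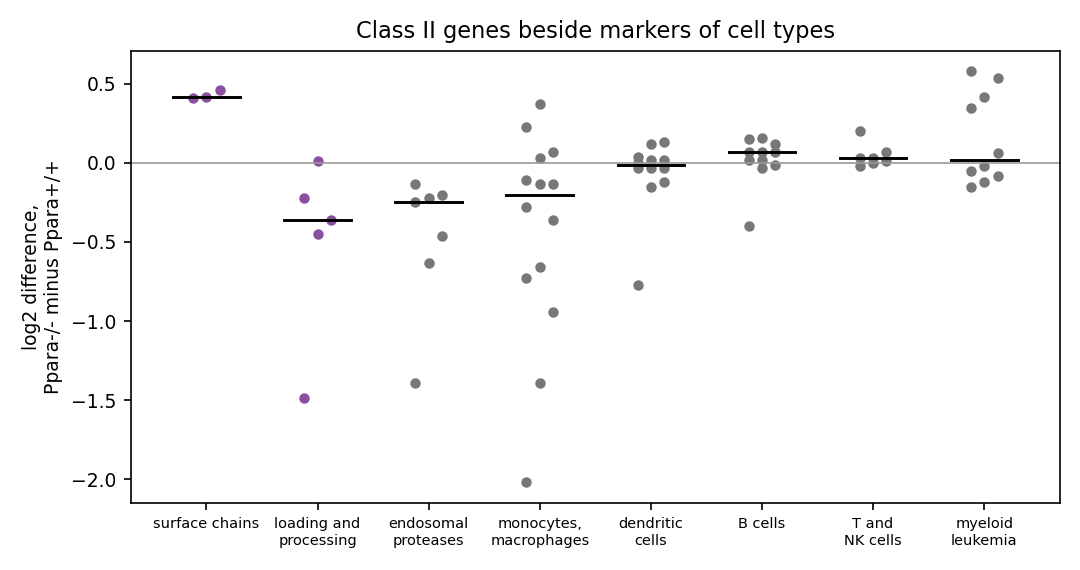
Log2 difference, Ppara-/- minus Ppara+/+ (y axis), of each measured gene in the arms of the class II set (purple) and in lists of endosomal proteases and cell type markers (grey), with a bar at each median. The proteases (median -0.25) and the monocyte and macrophage markers (-0.21) lie on the side of the loading genes (-0.36), and the dendritic (-0.01), B (0.07) and T and NK cell markers (0.03) lie near 0.

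**Figure D5:**
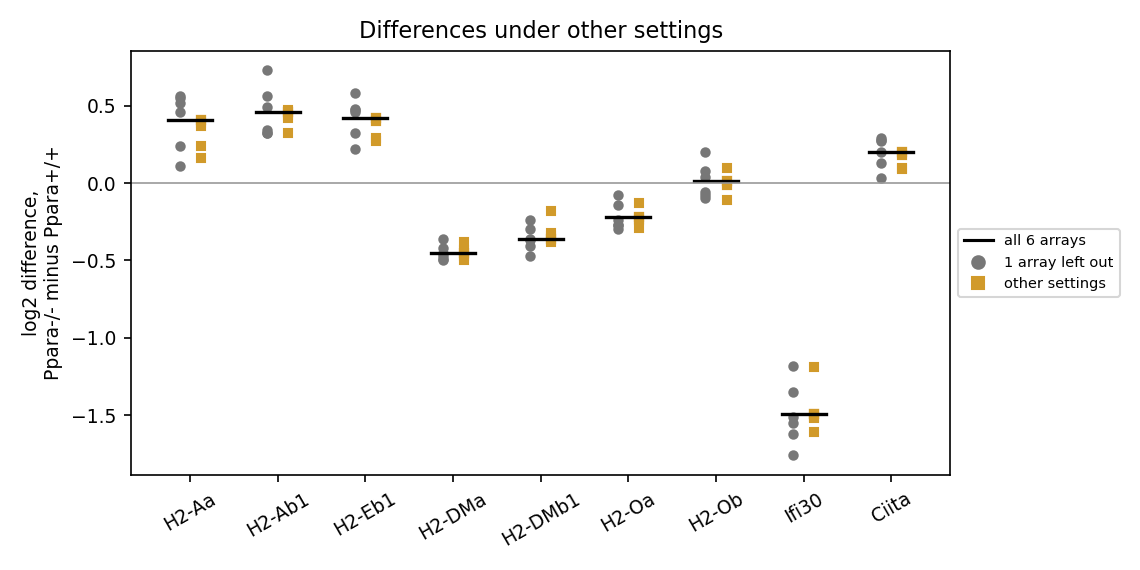
Log2 difference, Ppara-/- minus Ppara+/+ (y axis), of each class II gene (x axis) with all 6 arrays (bar), with 1 array left out (grey circles) and under the other settings (yellow squares). H2-Aa ranges from 0.11 to 0.56 and Ifi30 from -1.76 to -1.18, and H2-Ob is the one gene with values on both sides of 0.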

How the data were processed

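RNA of 6 sorted leukemia samples was measured on Affymetrix arrays. The table that the authors deposited gives a log2 signal for each probe set on each array; the submitters' processing notes name RMA and limma, with no version or order. The array model and the genome build are not settled by the sources used here. Of 72688 rows 6732 were controls, 31216 were paired with 1 gene, 1534 with several and 33206 were unnamed here. Current symbols were taken from RefSeq (GRCm38.p6) by gene ID, and an older and a current symbol of 1 gene ID counted as 1. Each of 30743 genes was tested through its probe set of highest mean, without a filter, in limma 3.58.1 (R 4.3.3) by lmFit with eBayes, without covariates (two-sided, adjusted p under 0.05 over all genes). Intervals and SE are the moderated ones. The fit was tested on simulated data. Groups and replicate numbers came from the sample titles. Same-numbered arrays did not deviate together (correlations of -0.33, -0.47 and 0.11), so the numbers were not taken as pairs. Quantile normalization in RMA can hide a change shared by most genes. The number of arrays limits the precision. All 10 members and 3 other class II loci were to be named, with the 2 smallest p of each other pathway list, each marker past the threshold and the 5 nearest profiles; other genes named were chosen after their values were seen. The members and lists were chosen with earlier results of these data known. Alternatives covered the prior, normalization, dim genes, probe sets, the replicate block, arrays left out and the control signal. Tables and plots used Python 3.11.15, pandas 2.3.3 and matplotlib 3.10.9.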

Additional observations from a re-analysis of the deposited data

How the results depend on the processing

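Limma called 0 of the tested members under each of the 14 alternatives, 13 of which left all 9 and the filter on dim genes only Ifi30. The difference between genotypes in surface chains minus loading and processing genes stayed positive in the 13 that gave one, from 0.64 (without both arrays of highest control signal) to 1.17; the filter gives none. All members kept their direction except H2-Ob, at -0.01 with median centring and with quantile normalization, -0.11 with the control median as a covariate and -0.10 to 0.20 with 1 array left out. H2-Eb2 was at -0.00 with both normalizations, -0.06 without both arrays, -0.08 with the covariate and -0.12 to 0.12 with 1 array left out. The 36 genes called over all became 69 with a trended and robust prior, 13 with median centring, 22 with quantile normalization, 1 with the filter (of 4414 genes), 12 with the replicate block, which pairs arrays that share only a number, and 0 without both arrays (2947 at an unadjusted p under 0.05). With 1 array left out it was 6 to 36, and it was 6, 11 and 15 when Ppara-/- replicate 1, 2 or 3 was missing and 13 when Ppara+/+ replicate 3 was. The causes of these shifts were not tested. Signal over background limits every member but Ifi30.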
